A study of Mus musculus with 9 samples.

Results

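The complement genes described here are the 8 genes C1qa, C1qb, C1qc, C2, C3, C4b, Cfb and C3ar1, taken by symbol from the 32285 genes of the series. All 8 had unique molecular identifiers (UMIs, 1 per captured RNA molecule) in all 9 libraries. The series holds single-nucleus RNA sequencing (snRNA-seq) of epididymal adipose tissue (epiAT), the visceral fat pad beside the epididymis, from male C57BL/6J mice, with 1 library per diet group and the nuclei of 5 mice pooled in each. The chow groups were C (18 weeks of age), CC (26 weeks) and CCC (39 weeks). Obesity was induced by a high-fat diet (HFD) for 12 weeks in H (18 weeks of age) and 25 weeks in HH (31 weeks of age). Weight loss (WL) followed a return to chow for 8 weeks in HC (12 weeks of HFD first, 26 weeks of age) and HHC (25 weeks of HFD first, 39 weeks of age). The last pair, both 30 weeks of age, received HFD for 4 final weeks, either for the first time (CCH) or after 12 weeks of HFD and 8 weeks on chow (HCH). The labels call C, CC and CCC all chow. Per the study, controls ate a low-fat chow during the HFD period, and both arms ate a different standard chow during the WL period. C was thus taken on another chow than CC and CCC. Apart from diet, age and the sequencing set given further on, the labels name no difference between the groups. Since each diet group had 1 library, no group has replicates and the 5 pooled mice cannot be told apart. Comparisons between single libraries therefore carry counting intervals only.

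Complement is a cascade of blood and tissue proteins that tags particles for uptake and recruits phagocytes. C1q, built from the products of C1qa, C1qb and C1qc, starts the classical pathway on antibodies or dying cells. C4 and C2 then form the enzyme that cleaves C3, the component on which all pathways converge. Factor B (Cfb) forms the corresponding enzyme of the alternative pathway. C3a, a fragment of C3, acts on the receptor encoded by C3ar1. The liver makes much of circulating complement, while tissue macrophages are a known source of C1q and adipose tissue produces several components locally.

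All 8 genes lie on the minus strand of GRCm38. The C1q genes are neighbours on chromosome 4, with C1qb at 136880129 to 136886187, C1qc 3616 bases further at 136889804 to 136893065, and C1qa another 2851 bases on at 136895917 to 136898803. On chromosome 17, C4b spans 34728380 to 34743882, Cfb 34856374 to 34862518, C2 34862604 to 34898265 and C3 57203970 to 57228136. Only 85 bases separate Cfb from C2. C3ar1 lies on chromosome 6 from 122847138 to 122856161. Promoter sequences of 4 of the 8 genes were found in RefSeq (GRCm38.p6, minus strand, 250 bases before to 50 after the start). They are shown because the neighbours C1qb and C1qc had the most similar patterns of any pair of the 8 genes, whereas C3 and C3ar1 had their highest levels in different cell classes. Capitals mark GAGGAA, a purine-rich element that the myeloid factor PU.1 is known to bind, or its reverse complement TTCCTC, in the C1q promoters, and the letters TATAAA in C3 and C3ar1. C1qb is read from chr4:136886151-136886450, C1qc from chr4:136892865-136893164, C3 from chr17:57228087-57228386 and C3ar1 from chr6:122856108-122856407.
C1qb: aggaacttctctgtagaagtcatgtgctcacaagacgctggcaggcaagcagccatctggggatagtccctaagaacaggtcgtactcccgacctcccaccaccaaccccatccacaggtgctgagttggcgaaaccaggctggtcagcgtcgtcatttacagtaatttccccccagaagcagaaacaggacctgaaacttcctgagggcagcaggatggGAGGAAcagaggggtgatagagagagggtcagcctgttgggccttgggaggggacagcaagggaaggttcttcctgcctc
C1qc: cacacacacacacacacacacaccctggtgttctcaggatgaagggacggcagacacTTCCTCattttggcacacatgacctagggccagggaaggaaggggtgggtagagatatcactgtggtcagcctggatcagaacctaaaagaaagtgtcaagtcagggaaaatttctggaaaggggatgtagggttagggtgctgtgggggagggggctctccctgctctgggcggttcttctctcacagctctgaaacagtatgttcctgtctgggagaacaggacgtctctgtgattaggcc
C3: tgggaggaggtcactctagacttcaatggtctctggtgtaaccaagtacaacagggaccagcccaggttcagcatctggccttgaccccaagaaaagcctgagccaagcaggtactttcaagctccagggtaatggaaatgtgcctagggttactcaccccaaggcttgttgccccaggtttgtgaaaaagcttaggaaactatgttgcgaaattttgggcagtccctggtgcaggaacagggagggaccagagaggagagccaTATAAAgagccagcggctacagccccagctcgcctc
C3ar1: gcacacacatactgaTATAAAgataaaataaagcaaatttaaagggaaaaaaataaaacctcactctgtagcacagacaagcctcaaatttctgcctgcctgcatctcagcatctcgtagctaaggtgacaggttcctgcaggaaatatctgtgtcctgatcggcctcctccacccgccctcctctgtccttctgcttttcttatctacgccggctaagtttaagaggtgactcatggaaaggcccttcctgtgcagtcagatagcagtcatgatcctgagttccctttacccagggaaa
Both strands were searched. GAGGAA began at position -30 from the start in C1qb and TTCCTC at -193 in C1qc. GAGGAA in either direction was present in 28.28% of 32851 RefSeq promoters of this length. TATAAA was found at position 14 in C3 and -235 in C3ar1, neither of them where a TATA box is usually found, and in 13.62% of all promoters. CCAAT, present in 37.41%, was found in none of the 4. These matches describe letters in a window and not sites of binding.

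The libraries held 5173 to 14833 barcodes with 22599619 to 66615262 UMIs in all. Any pair of libraries shared at most 55 barcodes (0.493% of the smaller library). Nuclei were gated to cell classes by marker genes, none of them a complement gene. Between 13.2% and 35.7% of nuclei per library reached no class. The labelled tissue was borne out by adipocyte markers in every library. Adipocyte-gated nuclei were 21.8%, 21.4% and 30% of nuclei in C, CC and CCC against 2.11% and 3.54% in H and HH. Macrophage-gated nuclei were 14.5%, 12.3% and 7.12% against 40% and 33.4%. Lipid-associated macrophages (LAMs, gated on Trem2, Gpnmb and related genes) were 1.35%, 1.01% and 4.59% of macrophages in C, CC and CCC, 80.1% and 74.4% in H and HH, 65.6% and 86.8% in HC and HHC, 2.88% in CCH and 49% in HCH. Perivascular macrophages (PVMs, gated on Lyve1, Cd163 and related genes) were 78.3% to 83% of macrophages in the chow libraries and 6.12% to 19.1% in H, HH, HC and HHC. In CCC, only 22.3% of adipocyte-gated nuclei fell into an adipocyte cluster by unsupervised clustering. Adipocyte values of that library are weak. A sequencing set named S019 held CC, CCC, HC and HHC and the other, S075, held C, H, HH, CCH and HCH. HFD libraries thus lay in 1 set and WL libraries in the other, with chow libraries in both.

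RNA from broken cells gives a few UMIs in every droplet, and for these genes that level was high and differed between diets. It was read from 6 other classes (endothelial, lymphatic endothelial, smooth muscle, epithelial, T or NK, and B cells), as UMIs per nucleus in those with at least 40 nuclei. For the C1q genes summed, the median of these classes was 0.168, 0.172 and 0.124 UMIs per nucleus in C, CC and CCC, 1.24 and 1.75 in H and HH, 0.156 and 0.647 in HC and HHC, and 0.319 and 1.94 in CCH and HCH. It was highest in H, HH and HCH, the 3 libraries with the highest share of macrophage-gated nuclei, all in set S075. HHC, in set S019, had nearly the share of HCH (29.6% against 30.7%) but a lower background (0.647 against 1.94). The reason was not tested. A class is called above background in a library only where its exact Poisson 95% interval lay above the highest of these 6 classes. Such intervals cover counting error only.

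**Figure D1:**
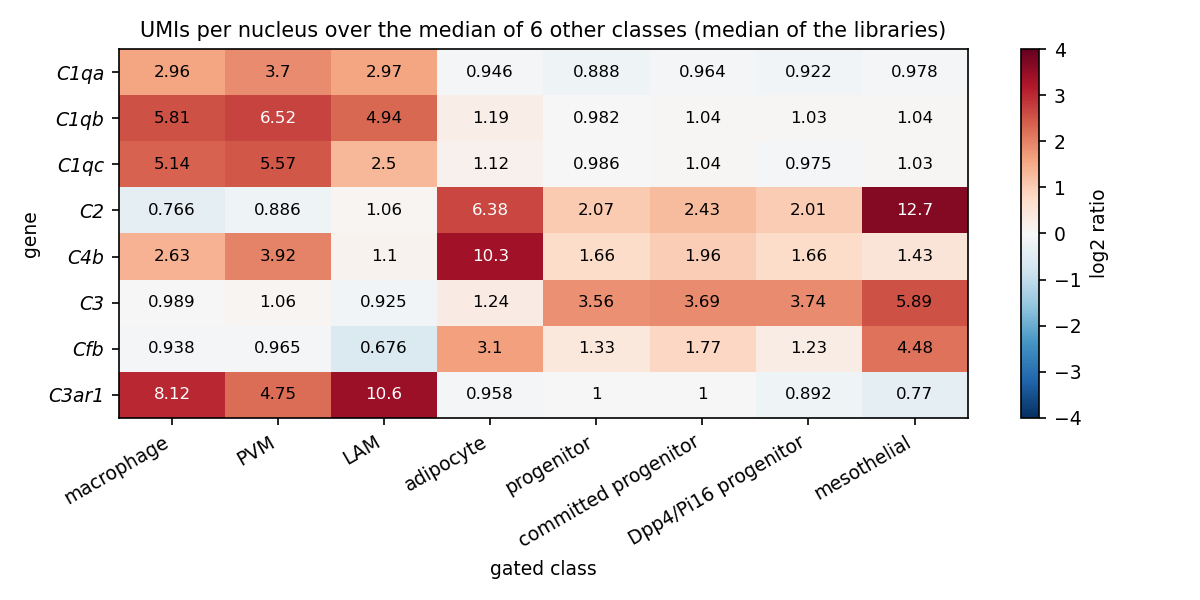
UMIs per nucleus of each gene in 8 gated classes, divided by the median of the 6 background classes in the same library. Each cell prints the median ratio over libraries and the colour gives its log2 (red above, blue below background), with C1q and C3ar1 highest in macrophages, C4b in adipocytes, and C3, C2 and Cfb in mesothelial nuclei.

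C1q, the recognition subunit of the classical pathway, had its highest ratios to background in macrophages. They held 28.6% to 63% of all C1q UMIs of a library, with the lowest share in CCC, where ungated nuclei held 34.1%. Macrophage-gated nuclei were above background in 9 of 9 libraries, as were LAMs and PVMs taken separately. Progenitor, mesothelial and adipocyte nuclei were above it in 0 of 9. Macrophages held 1.07, 0.97 and 0.929 C1q UMIs per nucleus in C, CC and CCC, 3.05 and 3.87 in H and HH, 0.886 and 1.97 in HC and HHC, and 1.82 and 3.75 in CCH and HCH. After thinning each nucleus to 1000 UMIs, 35%, 23.6% and 30.2% of macrophages in C, CC and CCC had a C1q UMI against 66.4% and 79.2% in H and HH. Before thinning these shares were 59.5%, 51.5%, 53.3%, 89.5% and 95%, and 161, 2, 24, 149 and 268 shallower nuclei were left out by it. In endothelial nuclei, which should lack C1q, the thinned shares were 6.83%, 9.71%, 10.3%, 48.1% and 64.2% in the same libraries. Their median depths were 1630, 3188, 1755, 1474 and 1421 UMIs against 2191, 2755, 2109, 2394 and 2022 in macrophages.

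Levels are given as CPM, the UMIs of a gene scaled to a common total of UMIs for each class and library. C1qa in macrophages was 185, 86.8 and 116 in C, CC and CCC, 333 and 536 in H and HH, 52.8 and 155 in HC and HHC, 226 in CCH and 389 in HCH. C1qb was 126, 127 and 154 in the chow libraries, 487 and 670 in the HFD libraries, 157 and 236 after WL, 153 in CCH and 436 in HCH. C1qc was 128, 103 and 131 in the chow libraries, 334 and 515 in the HFD libraries, 61.6 and 166 after WL, 156 in CCH and 328 in HCH. For all 3 chains, H and HH lay above every chow library with no overlap, while HC was under them for C1qa and C1qc and near them for C1qb.

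An edgeR quasi-likelihood fit that took libraries of 1 diet state as replicates (C, CC and CCC against H and HH, and against HC and HHC) gave log2 fold changes in macrophages of HFD libraries of 1.59 (SE 0.44, adjusted p = 0.024) for C1qa, 1.96 (SE 0.21, adjusted p = 0.00124) for C1qb and 1.67 (SE 0.34, adjusted p = 0.00841) for C1qc. These libraries differ in age and feeding time, and C also in its chow, so the p-values measure the spread between such pools. With the sequencing set as a term in the fit, C1qb kept its call (2.02, adjusted p = 0.0177), but C1qa (1.05, adjusted p = 0.21) and C1qc (1.55, adjusted p = 0.084) lost theirs. Without HH neither C1qa (1.22, adjusted p = 0.15) nor C1qc (1.34, adjusted p = 0.0642) passed. C1qa was also lost without CC (1.39, adjusted p = 0.0654) or CCC (1.52, adjusted p = 0.0702). Within set S075, summed C1q was 2.63-fold (95% interval 2.5 to 2.77) higher in H than in C and 3.93-fold (3.74 to 4.13) higher in HH than in C. After WL, none of the 3 passed the test against the chow libraries (adjusted p = 0.681, 0.179 and 0.889 for C1qa, C1qb and C1qc). The ratio of summed C1q was 0.857 (0.766 to 0.959) for HC with CC and 1.39 (1.25 to 1.55) for HHC with CCC.

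Since the background also rose with HFD, it was subtracted per nucleus before the levels were compared again. Summed C1q in macrophages was then 369, 260 and 348 CPM in C, CC and CCC, 685 and 943 in H and HH, 224 and 374 in HC and HHC, and 441 and 555 in CCH and HCH. The HFD libraries remained above all chow libraries by smaller folds, and HC and HHC lay near CC and CCC. The 3 chains did not move equally from CCH to HCH, with subtracted ratios of 1 for C1qa, 1.5 for C1qb and 1.37 for C1qc.

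The higher C1q of HFD libraries was also present in PVMs. In PVMs alone, summed C1q after subtraction was 409, 285 and 379 CPM in C, CC and CCC, 1058 and 1174 in H and HH, 276 and 459 in HC and HHC, 526 in CCH and 827 in HCH. H and HH again lay above the chow libraries without overlap. In the 5 libraries with at least 100 LAM nuclei (H, HH, HC, HHC and HCH), summed C1q without subtraction was 1.13- to 1.47-fold higher in PVMs than in LAMs in 5 of 5 (exact sign-flip permutation test over libraries, two-sided p = 0.0625, the smallest 5 libraries allow, unadjusted among 26 comparisons of this kind). LAMs of the chow libraries numbered 22, 5 and 18 nuclei, too few for a comparison between diets.

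**Figure D2:**
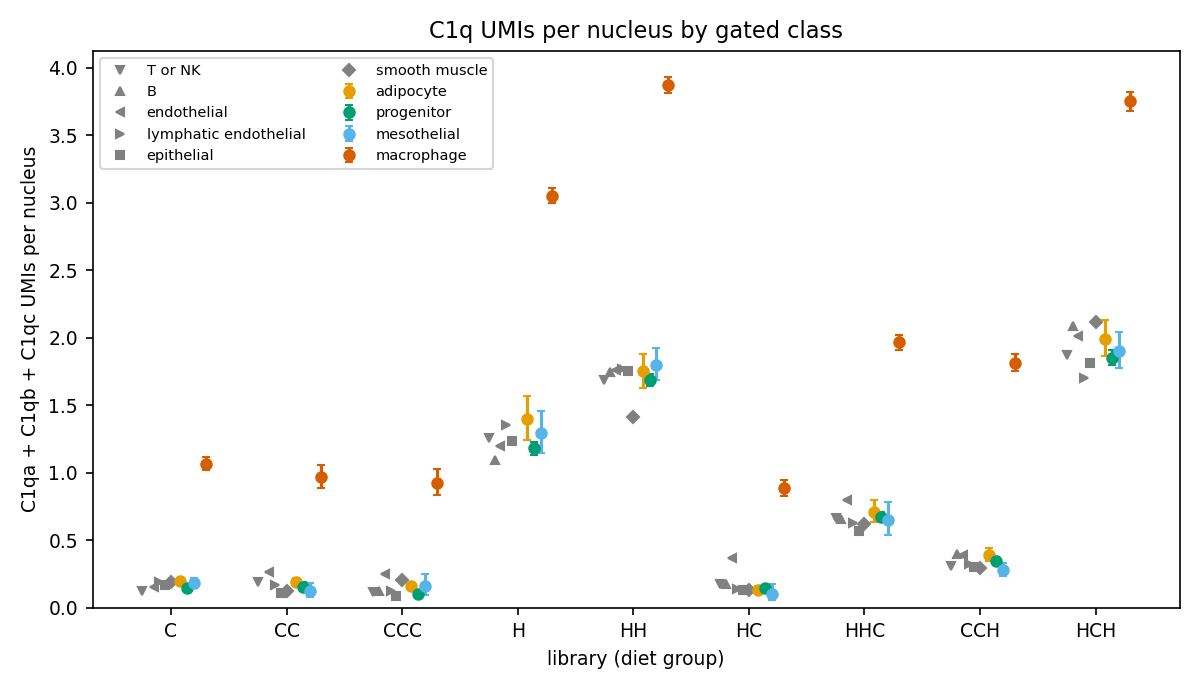
C1q UMIs per nucleus (C1qa, C1qb and C1qc summed) in each of the 9 libraries, with exact Poisson 95% intervals for macrophages, adipocytes, progenitors and mesothelial nuclei (coloured) and the 6 background classes as grey symbols. Macrophages range from 0.886 in HC to 3.87 in HH. The other coloured classes lie among or close to the grey symbols, with no interval wholly above the highest of them.

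C4b, a murine gene for complement C4, showed a different pattern, with its highest levels per nucleus in adipocytes and PVMs. Reads of its near-identical neighbour C4a, a gene with almost no UMIs here (306 over all libraries), may be split between both copies, so C4b counts are uncertain to that extent. In adipocytes C4b was above background in 9 of 9 libraries, at 328, 238 and 225 CPM in C, CC and CCC, 468 and 374 in H and HH, 163 and 450 in HC and HHC, 279 in CCH and 325 in HCH. HFD and chow adipocytes did not overlap, but the fit gave only 0.44 (SE 0.39, adjusted p = 0.462) on the log2 scale, and 0.00 when the sequencing set was a term (adjusted p = 0.996). HC was the lowest of the 9 libraries and HHC the second highest, so the WL libraries fell on either side of their controls. The ratios were 0.684 (0.615 to 0.76) for HC with CC and 2 (1.82 to 2.2) for HHC with CCC. The second rests on CCC, whose adipocyte values are weak as given above.

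Among macrophages, C4b separated the subtypes. PVMs were above background in 9 of 9 libraries, LAMs in 1 of 9. LAMs numbered only 22, 5, 18 and 52 nuclei in C, CC, CCC and CCH, too few for their intervals to decide. C4b in PVMs was 249, 188 and 193 CPM in C, CC and CCC, 390 and 311 in H and HH, 84.6 and 184 in HC and HHC, 225 in CCH and 280 in HCH. In LAMs it was 47.5 and 91.8 in H and HH, 21.1 and 70.1 in HC and HHC, and 92.2 in HCH. Within each of these 5 libraries PVMs exceeded LAMs, by 8.21-fold (7.16 to 9.41) in H, 3.39-fold (2.99 to 3.85) in HH, 4.01-fold (2.66 to 6.04) in HC, 2.62-fold (2.12 to 3.21) in HHC and 3.04-fold (2.71 to 3.41) in HCH (exact sign-flip permutation test, p = 0.0625, the smallest 5 libraries allow).

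Taken over all macrophages, C4b was 224, 178 and 172 CPM in the chow libraries, 93.1 and 127 in the HFD libraries, 36.6 and 84.2 after WL, 193 in CCH and 163 in HCH. It fell by 0.95 on the log2 scale (SE 0.31, adjusted p = 0.047) with HFD and by 1.70 (SE 0.33, adjusted p = 0.0178) after WL in the edgeR fit. The libraries with low C4b in macrophages were those in which LAMs outnumbered PVMs. Within PVMs the comparisons of HFD with chow ran the other way, at 1.56 (1.39 to 1.75) for H with C and 1.25 (1.11 to 1.41) for HH with C in the same sequencing set. After WL, C4b in PVMs was 0.451 (0.327 to 0.612) of the CC level in HC and 0.953 (0.737 to 1.23) of the CCC level in HHC, so HC was lower within PVMs too. The part of the LAM share in the fall was not tested. Neither call held with the sequencing set as a term, at -1.21 (adjusted p = 0.0733) and -1.54 (adjusted p = 0.0607). With macrophages taken from unsupervised clusters they were -0.41 (adjusted p = 0.446) and -1.32 (adjusted p = 0.1). The call in HFD libraries was also lost without C (-0.77), CC (-0.97), CCC (-1.01), H (-0.72) or HH (-1.18), and the call after WL without C (-1.52) or HC (-1.24).

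In progenitors, the stromal cells that give rise to adipocytes, C4b was 95, 75.4 and 75 CPM in the chow libraries, 168 and 248 in HFD libraries, 89.4 and 164 after WL, 52.4 in CCH and 143 in HCH. It was above background in 7 of 9 libraries. The HFD libraries lay above the chow libraries, with a log2 fold change of 1.12 (SE 0.27, adjusted p = 0.0266) that was 0.87 (adjusted p = 0.137) with the sequencing set as a term. This call was lost without CC (1.07), CCC (1.07), H (1.38) or HH (0.82). Background-subtracted C4b was 35.5, 18.4 and 22 CPM in C, CC and CCC against 133 and 183 in H and HH, 74.5 and 86.6 in HC and HHC, and 15.4 and 56.9 in CCH and HCH. Before subtraction HC lay below C, progenitors of CC and CCH were at background, and the change after WL did not pass (0.53, SE 0.27, adjusted p = 0.428). Committed progenitors (Bmper, Fgf10 and others) held more C4b than Dpp4- and Pi16-expressing progenitors in 8 of 9 libraries, at a median ratio of 1.42 (exact sign-flip permutation test, p = 0.00781). The exception was C at 0.928 (0.708 to 1.2). These ratios are without subtraction. C4b was above background in 6 of 9 libraries in committed progenitors and in 5 of 9 in Dpp4- and Pi16-expressing ones.

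**Figure D3:**
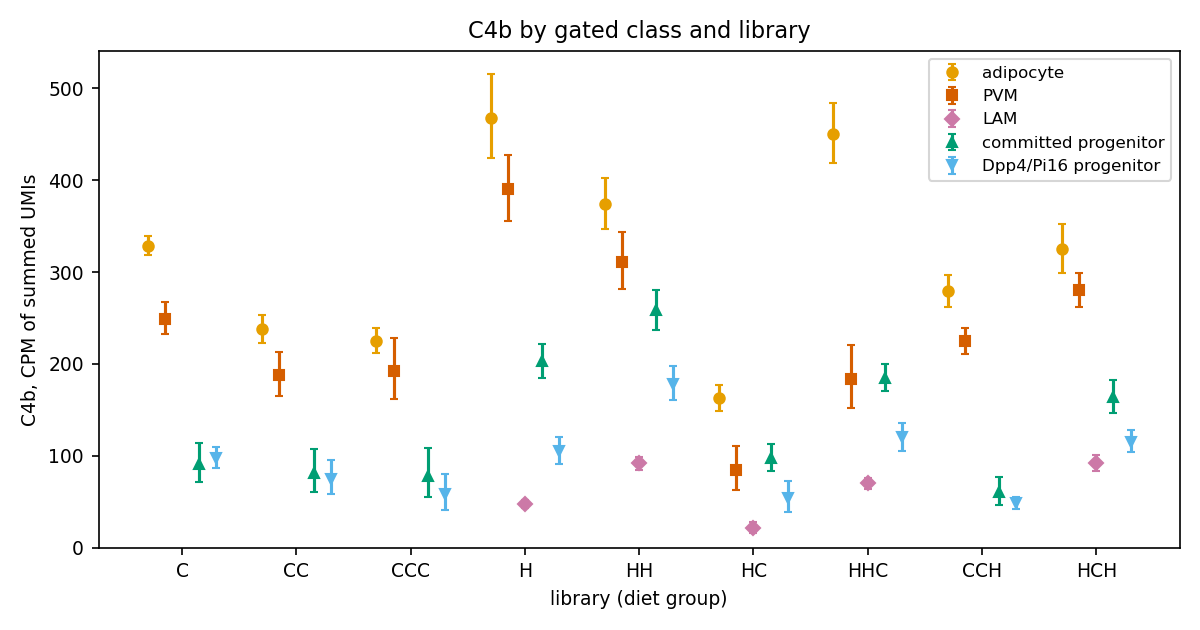
C4b in CPM with exact Poisson 95% intervals for each library in adipocytes, PVMs, LAMs, committed progenitors and Dpp4/Pi16 progenitors. LAMs are drawn in H, HH, HC, HHC and HCH, where PVMs lie above them, and committed progenitors lie above Dpp4/Pi16 progenitors in every library but C.

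C2, the protease partner of C4, was steady in mesothelial cells, the lining of the fat pad, and variable in adipocytes. Mesothelial C2 was 252, 168 and 209 CPM in C, CC and CCC, 244 and 229 in H and HH, 181 and 212 in HC and HHC, 180 in CCH and 225 in HCH. It was above background in 9 of 9 libraries. The groups overlapped and the fit gave 0.10 (SE 0.21, adjusted p = 0.851) for HFD against chow, which does not show equality. Adipocyte C2, also above background in 9 of 9, was 275 CPM in C but 73.1 in CC and 49.9 in CCC, 41.4 and 38.7 in H and HH, 60.6 and 95.8 in HC and HHC, 101 in CCH and 40 in HCH. C alone was far above all others, so H with C gave a ratio of 0.15 (0.105 to 0.209) and HH with CC 0.53 (0.405 to 0.687). The fitted change of -2.03 (SE 0.77) had an adjusted p of 0.116, or 0.0194 at -3.13 with the sequencing set as a term. C2 in macrophages fell by 1.39 on the log2 scale with HFD (SE 0.39, adjusted p = 0.0263), yet it was above background in 0 of 9 libraries and is read as background. The call was lost without C (-1.12), CC (-1.27), H (-1.11) or HH (-1.67).

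C3, the central component, was highest in mesothelial nuclei and also present in progenitors. Mesothelial C3 was 671, 262 and 265 CPM in C, CC and CCC, 1296 and 1664 in H and HH, 305 and 610 in HC and HHC, 393 in CCH and 1168 in HCH. Progenitor C3 was 286, 202 and 265 CPM in the chow libraries, 479 and 836 in the HFD libraries, 251 and 478 after WL, 194 in CCH and 591 in HCH. Both classes were above background in 9 of 9 libraries and H, HH and HCH were the highest 3 libraries in both, although HHC (478 CPM) was level with H in progenitors. Mesothelial nuclei exceeded progenitors in 9 of 9 libraries, at 1- to 2.71-fold (exact sign-flip permutation test, p = 0.00391, the smallest 9 libraries allow). In CCC the interval (0.778 to 1.27) included equality, as did that of HC (0.996 to 1.47).

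With HFD, C3 rose by a log2 fold change of 1.80 (SE 0.36, adjusted p = 0.0107) in mesothelial nuclei and 1.17 (SE 0.30, adjusted p = 0.0316) in progenitors. With the sequencing set as a term neither passed (1.12, adjusted p = 0.116, and 0.94, adjusted p = 0.165). The mesothelial call was lost without HH (1.63, adjusted p = 0.116), and the progenitor call without CC (1.05), CCC (1.22), H (1.52) or HH (0.72). Within set S075 the mesothelial ratio was 1.93 (1.75 to 2.13) for H with C and 2.48 (2.29 to 2.68) for HH with C. The progenitor ratio was 1.67 (1.57 to 1.79) and 2.92 (2.76 to 3.1). After subtraction of the background, progenitor C3 was still 368 and 491 CPM in H and HH against 209, 145 and 231 in C, CC and CCC. Mesothelial C3 was 1180 and 1389 against 577, 204 and 232. After WL, C3 did not pass the test in mesothelial nuclei (0.20, SE 0.37, adjusted p = 0.917) or progenitors (0.45, SE 0.30, adjusted p = 0.56). HC lay nearer to its control (ratio 1.17 with CC, 0.909 to 1.49, in mesothelial nuclei) than HHC (2.3 with CCC, 1.8 to 2.97). HCH, with renewed HFD, held more C3 than CCH, with a first exposure of the same length, at 2.97 (2.7 to 3.27) in mesothelial nuclei and 3.05 (2.87 to 3.25) in progenitors. The C3 background was also higher in HCH, at 1.05 UMIs per nucleus against 0.25 in CCH. With it subtracted, the progenitor ratio was 2.16, and the mesothelial ratio is given without subtraction. Macrophages were above background for C3 in 0 of 9 libraries.

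Cfb, the alternative pathway protease, followed C3 in mesothelial nuclei at lower counts. Mesothelial Cfb was 92.2, 35.4 and 86.1 CPM in C, CC and CCC, 212 and 249 in H and HH, 43.2 and 96.9 in HC and HHC, 72.3 in CCH and 147 in HCH. It was above background in 8 of 9 libraries. H and HH lay above all chow libraries, with a log2 fold change of 1.62 (SE 0.34, adjusted p = 0.0134) that was 1.30 (adjusted p = 0.139) with the sequencing set as a term. The call was lost without H (1.74, adjusted p = 0.0513) or HH (1.52, adjusted p = 0.156). Cfb exceeded the progenitor level by 2.08- to 5.53-fold in 9 of 9 libraries (exact sign-flip permutation test, p = 0.00391). C2, the neighbour of Cfb, was 3.55- to 8.78-fold higher in mesothelial nuclei than in progenitors in the same 9 libraries (p = 0.00391 by the same exact test). C2, Cfb and C3 thus shared this class, while C2 gave no call with HFD there. Adipocyte Cfb was lower, from 20.2 CPM in HC to 57.8 in HHC, and above background in 6 of 9 libraries. Progenitor Cfb was above background in 1 of 9, and its call with HFD (1.39, SE 0.38, adjusted p = 0.0395) was lost without any 1 of C, CC, CCC, H or HH (0.93 to 1.75).

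**Figure D4:**
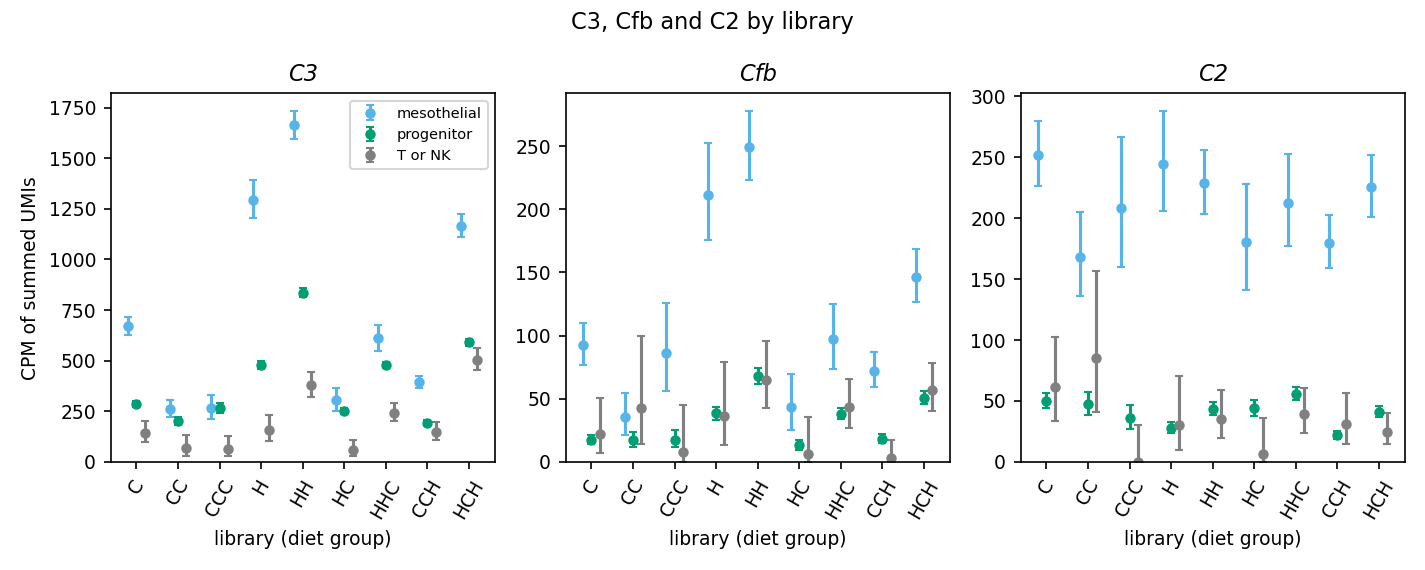
C3, Cfb and C2 in CPM per library with exact Poisson 95% intervals in mesothelial nuclei, progenitors and T or NK cells, the last being 1 of the background classes; each panel has its own vertical scale. Mesothelial C3 and Cfb are highest in H and HH, whereas mesothelial C2 stays between 168 and 252 CPM.

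C3ar1, the C3a receptor, was again a macrophage gene, above background in 9 of 9 libraries for all macrophages and for PVMs and in 8 of 9 for LAMs. In macrophages it was 63.6, 38.4 and 73.9 CPM in C, CC and CCC, 261 and 245 in H and HH, 124 and 187 in HC and HHC, 87.1 in CCH and 214 in HCH. The chow libraries lay below all others, and both WL libraries lay between the chow and the HFD libraries. The log2 fold change was 1.98 (SE 0.25, adjusted p = 0.00186) with HFD and 1.40 (SE 0.26, adjusted p = 0.0148) after WL. Both calls held with the sequencing set as a term (1.81, adjusted p = 0.0272, and 1.52, adjusted p = 0.0396). The call after WL was lost without HHC (1.18, adjusted p = 0.0989). Within set S019, HC exceeded CC by 3.24-fold (2.46 to 4.34) and HHC exceeded CCC by 2.54-fold (1.99 to 3.29). Renewed HFD (HCH) exceeded first HFD (CCH) by 2.46-fold (2.23 to 2.71).

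C3ar1 was higher in LAMs than in PVMs in 5 of 5 libraries, with PVM levels at 0.51 to 0.691 of the LAM level (exact sign-flip permutation test, p = 0.0625, the smallest 5 libraries allow). The libraries with high C3ar1 were thus those with many LAMs, and the part of that share in the difference was not tested. In PVMs alone, C3ar1 was 61.6, 39.4 and 78 CPM in C, CC and CCC, 152 and 160 in H and HH, 73 and 123 in HC and HHC, 98.3 in CCH and 174 in HCH. After background subtraction these PVM levels were 59.4, 34.8 and 77.3 in the chow libraries, 95.5 and 107 in the HFD libraries, and 57.6 and 86.1 after WL. HC lay within the chow range with and without subtraction.

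Counted by the test over all genes, 6 of the 8 complement genes passed in macrophages of HFD libraries (C1qa, C1qb, C1qc and C3ar1 higher, C2 and C4b lower), where 32.9% of 14513 genes passed. Of these, C2 was above background in macrophages in 0 of 9 libraries, and its call is read as background. In progenitors 7 passed, all higher, against 16.4% of 15363 genes. In mesothelial nuclei 7 passed, all higher, against 7.75% of 9458 genes. Of these, C3ar1 held 1, 0 and 0 UMIs there in C, CC and CCC against 35 and 60 in H and HH and passed the filter on low counts through the other groups, so 6 is the count without it. In adipocytes 3 passed (C1qa, C1qb and C3ar1, higher) against 9.61% of 14349 genes. In macrophages the median log2 fold change of the 8 was 1.51, beside 0.02 over all genes tested. That median includes C2, C3 and Cfb, each above background there in 0 of 9 libraries. However, the C1q genes and C3ar1 were at background in progenitors, mesothelial nuclei and adipocytes, so no median is given for those classes. Of the calls there, only C3, C4b and Cfb in progenitors and mesothelial nuclei concern genes not at background throughout. Of those, Cfb in progenitors was above background in 1 of 9 libraries and C4b in mesothelial nuclei in 3 of 9. Without HH the counts were 2, 2, 3 and 0 in the order macrophages, progenitors, mesothelial nuclei and adipocytes, and without H 5, 4, 6 and 0.

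After WL fewer genes passed. In macrophages 2 of the 8 passed (C3ar1 higher, C4b lower) against 6.88% of all genes, and in progenitors 1 (C3ar1, at background) against 1.08%. In mesothelial nuclei edgeR called 0 of the 8 against 0.307% of all genes, with 2 at an unadjusted p under 0.05 and 1 called by DESeq2. In adipocytes edgeR called 0 of the 8 and 0 (0%) of all genes, with 2 of the 8 and 1345 of all genes at an unadjusted p under 0.05, and DESeq2 called 1 of the 8 and 181 of all genes. The DESeq2 call was C3ar1 in both classes, which is at background there and in mesothelial chow libraries almost at 0.

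**Figure D5:**
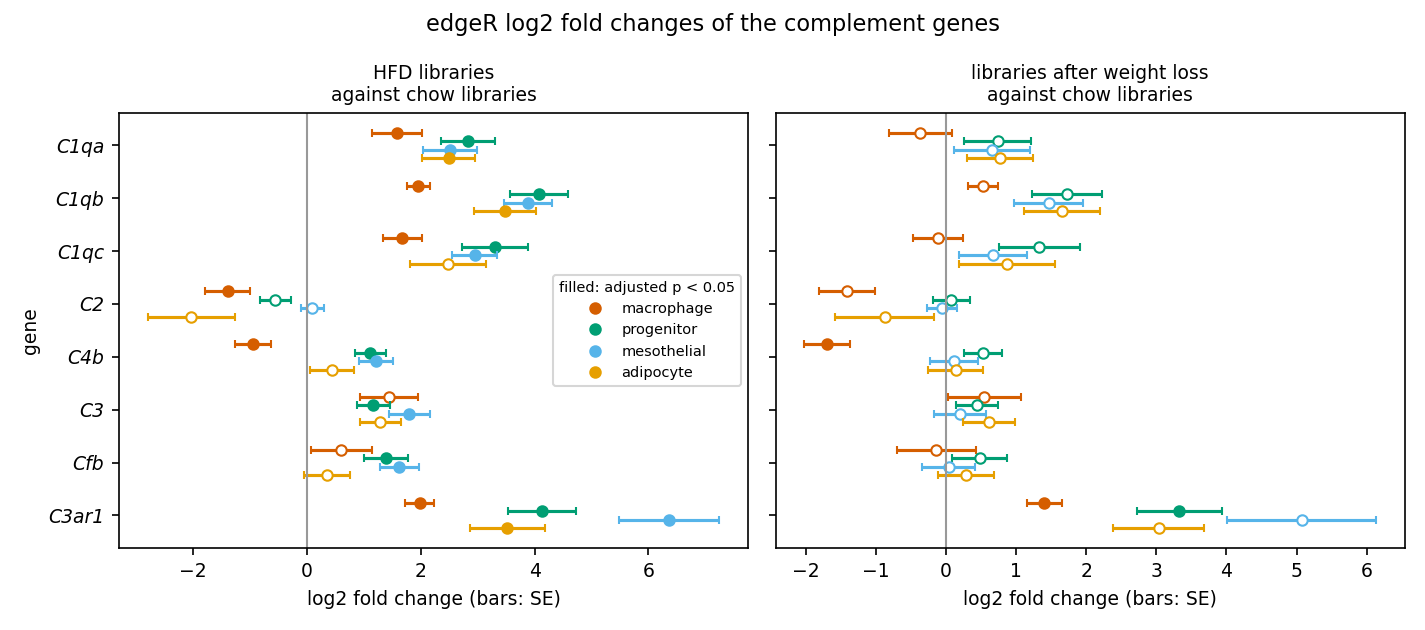
Log2 fold changes from the edgeR fits with their standard errors for the 8 genes in macrophages, progenitors, mesothelial nuclei and adipocytes, for HFD and WL libraries against chow libraries (filled, adjusted p under 0.05; the horizontal ranges differ between panels). C1q and C3ar1 in the classes other than macrophages, and C2 in macrophages, are at background, as given in the text.

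Comparisons of single libraries, with genes of at least 50 UMIs and a call at 2-fold either way, were made for 5 pairs. In macrophages 5 of 8 genes were at least 2-fold apart for H with C (3 higher, 2 lower; 34.6% of all genes) and 7 of 8 for HH with CC (6 higher, 1 lower; 39.4%). The count was 3 of 7 for HC with CC (1 higher, 2 lower; 19%), 4 of 8 for HHC with CCC (3 higher, 1 lower; 19.1%) and 5 of 8 for HCH with CCH (all higher; 16.6%). In progenitors 5 of 8 were higher for H with C (24.3% of all genes), 7 of 8 for HH with CC (29.9%), 0 of 7 for HC with CC (10.4%), 6 of 8 for HHC with CCC (11.1%) and 7 of 8 for HCH with CCH (11.9%). Every progenitor count but that of HC with CC includes the C1q genes and C3ar1, above background there in 0 of 9 libraries. Each also includes Cfb, above it in 1 of 9. After subtraction 2, 4, 3 and 2 were 2-fold apart either way for H with C, HH with CC, HC with CC and HHC with CCC. The last count includes C3ar1 downward. The ratios of HH with CC and of HC with CC divide by small remainders in CC, such as 18.4 CPM for C4b and 2.25 for Cfb. The count of HH with CC also includes C1qb, at 16.2 against 6.52 CPM. For H with C, Cfb is counted at 16.7 against 0.424 CPM. With the background subtracted per nucleus, C1qb and C3ar1 were higher and C4b lower in macrophages for H with C, and C1qa, C1qb, C1qc and C3ar1 were higher for HH with CC. In HC, C3ar1 was higher and C4b lower than in CC. Between HHC and CCC and between HCH and CCH, the subtracted ratios of C3ar1 lay just under 2-fold, at 1.98 and 1.95, and were 2.11 in both when the epithelial level was subtracted instead. C4b passed 2-fold downward in both, but in HHC macrophages it was itself at background, and for HCH with CCH the log2 ratio of -1.01 was -0.24 without subtraction and -0.58 with the epithelial level subtracted. HH with CC and HC with CC share the library CC, and HH was 31 weeks of age against 26 weeks in CC.

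A further 47 genes of the complement system had a row, of which 29 were tested in macrophages, 31 in progenitors, 19 in mesothelial nuclei and 30 in adipocytes. With HFD, 7 rose and 7 fell in macrophages, 6 rose and 3 fell in progenitors, 5 rose and 1 fell in mesothelial nuclei and 3 rose and 1 fell in adipocytes, where 32.9%, 16.4%, 7.75% and 9.61% of all genes passed in these classes. The receptor genes Itgax, Itgb2 and C5ar1 were among those that rose in progenitors and mesothelial nuclei, and they were not compared with background there. In mesothelial nuclei the log2 fold change of Itgax with HFD ran from 4.84 to 7.85 over the settings. That of C3ar1, with almost no chow UMIs in this class, ran from 3.56 to 7.99. The mesothelial counts include Itgax with HFD, and no weight is put on its calls in that class. The mesothelial call of C5ar1 held in 8 of 15 settings. C5ar1 had its highest median in macrophages. For Itgax and Itgb2 it was in T or NK cells, at 133 and 203 CPM. Those medians cover only the 6 libraries with at least 100 T or NK nuclei. The macrophage median of Itgax, 84.6 CPM, covers all 9 libraries, so the classes are not ranked by it. Hc, the gene of C5, is counted in progenitors in both comparisons although its chow libraries were all at 0, so that only the other groups carried it past the filter on low counts; without it, 5 rose with HFD and 2 after WL. After WL, 4 rose and 3 fell in macrophages, 3 and 2 rose in progenitors and mesothelial nuclei, and 0 were called in adipocytes, where 6.88%, 1.08%, 0.307% and 0% of all genes passed in macrophages, progenitors, mesothelial nuclei and adipocytes. Among initiation genes, C1ra and C1s1, the proteases of the C1 complex, had their highest level in mesothelial nuclei, with medians over libraries of 142 and 276 CPM. C7, of the terminal pathway, reached 1384 to 3206 CPM in progenitors. Serping1, the C1 inhibitor, had its highest median in progenitors (234 CPM) and rose with HFD in progenitors (log2 fold change 1.09, SE 0.20, adjusted p = 0.0121) and mesothelial nuclei (1.56, SE 0.28, adjusted p = 0.00649). These calls held in 13 and 14 of 16 settings, with adjusted p up to 0.119 and 0.0998. Both were lost without HH and with the sequencing set as a term, and the progenitor call also without H. Serping1 was also higher with HFD in macrophages, by 1.76 to 2.92 over the 16 settings, with a call in 14. In adipocytes it was higher by 1.18 to 2.53, with a call in 5. Serping1 was not compared with background per nucleus.

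Of the 8 receptor genes on the list, 6 rose in macrophages with HFD (Itgax, Itgb2, C5ar1, C5ar2, Cd93 and Cr2) and 4 after WL (Itgax, Itgb2, Cd93 and Cr2), where 32.9% and 6.88% of all genes passed, while Vsig4 and Itgam passed in neither comparison. Cr2 had its highest median in B cells (360 CPM), whose share of nuclei was 0.339% to 1.04% in the chow libraries, 0.78% and 2.21% in H and HH, and 1.55% and 2.24% in HC and HHC. Cr2 was not compared with background in macrophages. Itgax, a subunit of complement receptor 4, rose by 3.75 with HFD (SE 0.49, adjusted p = 0.00188) and 4.33 after WL (SE 0.49, adjusted p = 0.00211), and its partner Itgb2 by 1.58 (adjusted p = 0.0107) and 2.17 (adjusted p = 0.00854). C5ar1, the C5a receptor, rose by 1.48 with HFD (SE 0.29, adjusted p = 0.00741), a call lost with the sequencing set as a term (1.10, adjusted p = 0.0701), and was at 0.26 (SE 0.30, adjusted p = 0.66) after WL. Fcna, a lectin pathway ficolin, fell by 2.45 after WL (SE 0.46, adjusted p = 0.0159). Cfd, adipsin, a product of adipocytes, had lower counts with HFD in macrophages (-3.86, adjusted p = 0.0101) and progenitors (-3.69, adjusted p = 0.0151). Cfd in epithelial nuclei, 1 of the background classes, went the same way, at 252, 597 and 95.5 CPM in C, CC and CCC against 11.5 and 31.2 in H and HH, beside 385, 640 and 104 against 12.4 and 46.1 in macrophages. Cfd was not compared with background per nucleus. Its calls with HFD held in 15 of 16 settings in macrophages and in 14 in progenitors. In adipocytes the change of Cfd ran from -2.26 to -1.28 over the settings, with a call in 4. Endothelial nuclei had the highest median of Cfd, at 304 CPM against 248 in adipocytes.

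Likeness of pattern was measured as Pearson r of log2(CPM + 1) over 69 pairs of library and class with at least 100 nuclei among 11018 genes, points that share libraries and therefore background, and it is given as a description. C1qc was the closest gene to both C1qb (0.96) and C1qa (0.947). The chemokine gene Ccl9 came next for both, at 0.953 with C1qb and 0.93 with C1qa, ahead of the r of 0.923 between C1qa and C1qb. C3ar1 was closest to Clec12a (0.939), Ms4a7 (0.933) and the gate marker Ctss (0.931), and C3 to C1ra (0.922), Serping1 (0.908) and the gate marker Dcn (0.892). C2 was closest to the gate marker Efemp1 (0.804), C4b to Grina (0.744) and Cfb to Rarres2 (0.748). Despite their adjacent positions, C2 and Cfb had an r of 0.58.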

How the data were processed

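The authors isolated nuclei from pooled frozen epiAT, prepared 10x Genomics libraries and deposited UMI counts per gene and nucleus from Cell Ranger (6.1.2, intronic reads included, mouse reference GRCm38); per the labels, Seurat (4.1.0) was used downstream. Counts may be split between near-identical genes. The study found no correction for ambient RNA necessary, and none is in the counts.

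Nuclei with 500 to 3000 genes and at most 40000 UMIs were kept; doublets were removed per library (Scrublet in scanpy 1.11.5, or the highest scores at the expected rate where it marked under 0.5%). Totals excluded Malat1 and the genes of the mitochondrial genome. A nucleus joined the class whose marker UMIs were least likely (score of at least 3, that is -log10 of a Poisson probability, at least 2 markers, the next class at most 50% of that score); this rule was set after class sizes, but not complement values, were seen. LAM, PVM and progenitor subsets needed 2 markers. Members and gene lists were chosen with earlier results of these data known.

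UMIs were summed per library and class and given as CPM. Diet states (7 libraries; CCH and HCH left out) were tested with edgeR 4.0.16 (R 4.3.3; TMM, filterByExpr, quasi-likelihood, Benjamini-Hochberg adjusted p under 0.05 over all genes); DESeq2 1.42.0 was an alternative. The fits were tested on simulated data. Single libraries were compared by ratios with exact conditional 95% intervals. Named genes were all 8 members, and other complement genes past the test or above 20 CPM in a class; the 3 genes most like each member were sought among those of at least 10 CPM. Alternatives comprised other normalization, filters, gates, clusters, the sequencing set and left-out libraries. The values of 1 further complement gene are not reported here.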

Additional observations from a re-analysis of the deposited data

Results flagged for a closer look

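C4b differed in direction between classes under the same contrast. For HFD libraries against chow libraries, its log2 fold change was -0.95 in macrophages, where every HFD library lay below every chow library, and 1.12 in progenitors, 1.21 in mesothelial nuclei and 0.44 in adipocytes. The difference between classes was not tested. LAMs were 1.01% to 4.59% of macrophages in the chow libraries and 80.1% and 74.4% in H and HH, and within PVMs C4b was 1.56-fold higher in H and 1.25-fold higher in HH than in C. The macrophage call held in 7 of 16 settings. In mesothelial nuclei C4b was above background in 3 of 9 libraries.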

How the results depend on the processing

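No paired analysis was possible because each diet group has 1 library, so the replicate number 1 pairs nothing. With the sequencing set as a term, the number of complement genes called with HFD was 3 in macrophages, 3 in mesothelial nuclei and 0 in progenitors, and after WL 1 in macrophages and 0 in progenitors. In adipocytes the HFD count of 3 became 6 by DESeq2, 6 with no filter on low counts, 5 with clusters and 5 with the stricter gate. After WL, DESeq2 called 1 in adipocytes, 1 in mesothelial nuclei and 2 in progenitors, no filter on low counts 2, 2 and 3, clusters 1 in adipocytes and 1 in macrophages, and doublets kept or no upper gene limit 1 in mesothelial nuclei. Leaving out 1 library at a time gave HFD counts of 0 to 5 in adipocytes, 2 to 7 in macrophages, 3 to 7 in mesothelial nuclei and 2 to 7 in progenitors, and WL counts of 0 to 0, 1 to 3, 0 to 2 and 0 to 3; the lowest HFD counts came without HH, in adipocytes also without CC or H. In such fits a lone library of a state is assumed to vary like the others. The DESeq2 and set-term changes rest on other models; the causes of the other changes were not tested.

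Subtraction of the epithelial level gave 3, 4 and 2 complement genes at least 2-fold apart in macrophages for H with C, HH with CC and HCH with CCH, and 3, 3 and 4 in progenitors for HC with CC, HHC with CCC and HCH with CCH; it turned C1qc in progenitors to -1.17 (log2) for HH with CC. Subtraction of 6 classes, chosen after seeing the data, gave 3, 4, 1 and 1 in macrophages for H with C, HH with CC, HHC with CCC and HCH with CCH, 2, 4, 3 and 2 in progenitors for H with C, HH with CC, HC with CC and HHC with CCC, and 27 in all; C3ar1 in progenitors turned to -1.07 for HHC with CCC. In progenitors of CC, C2, C4b and Cfb were at background, so the subtracted ratios of HC with CC and of HH with CC divide by small remainders. Members at or below 0 after subtraction have no ratio. Genes at background in a class cannot be resolved at this depth.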

Other observations

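Hc, the gene of complement C5, had few UMIs, most of those in gated nuclei being in progenitors. Its UMIs in progenitors numbered 0 in C, CC and CCC, 37 and 31 in H and HH, 12 and 45 in HC and HHC, 1 in CCH and 15 in HCH, among 649 to 3113 nuclei per library. Committed progenitors held 26 of 37 UMIs in H, 15 of 31 in HH, 8 of 12 in HC and 33 of 45 in HHC, but 6 of 15 in HCH, where Dpp4- and Pi16-expressing progenitors held 7. Over all nuclei, C, CC and CCC held 11, 7 and 10 Hc UMIs, of which 8, 4 and 7 were in ungated nuclei. On that scale CCC, at 0.834 CPM, was level with HC (0.854) and HCH (0.747), while H, HH and HHC were at 1.81, 1.42 and 2.37. The level was at most 6.69 CPM. With all chow libraries at 0, Hc passed the filter on low counts in progenitors through the HFD and WL libraries alone, so no test is given. The counts of 0 in chow progenitors apply to nuclei of at most 3000 genes. With nuclei of over 3000 genes kept, the fitted log2 ratios of progenitors were 1.98 with HFD and 2.03 after WL. They were the lowest of the 16 settings run, whose highest were 7.78 and 7.82, so the size of the difference depends on the settings.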
